A study of Mus musculus with 16 samples.

Results

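The genes described here are named for proteins of the cytosolic ribosome and were chosen by that name. A gene was included when an array row was annotated to exactly 1 gene symbol and that symbol was Rpl or Rps with a number, with a, x, y or l allowed as a last letter, or was Rplp0, Rplp1, Rplp2 or Rpsa. Symbols with a pseudogene suffix (-ps) were excluded, and of several rows of a gene the one with the highest average signal was used. This gave 64 of the 22180 genes on the array: 22 of the small (40S) subunit, 32 of the large (60S) subunit, 3 of the P stalk of the large subunit, and 7 whose symbol ends in l, which marks a gene resembling the one named before it. RefSeq lists 62 of the 64 as protein-coding, and 2 of the l-symbol genes otherwise, Rpl6l as a pseudogene and Rps4l as a transcribed pseudogene.

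Liver RNA of 8 mice aged 18 months was hybridised to mouse Affymetrix arrays, with 1 tumour and 1 piece of non-tumour liver from each mouse. The MYC/REG3A mice (MYC+/+, REG3A+/+; n = 4) carried a MYC and a REG3A transgene, and the MYC mice (MYC+/+, REG3A-/-; n = 4) carried the MYC transgene alone, in both cases on the C57BL/6J background. The MYC transgene, which all 8 mice shared, drives the c-MYC oncogene in liver from woodchuck hepatitis virus sequences, and REG3A encodes a secreted C-type lectin. The groups were thus MYC/REG3A tumour, MYC/REG3A non-tumour liver, MYC tumour and MYC non-tumour liver, with 4 arrays each. No liver without the MYC transgene was analysed here.

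Ribosomal proteins wrap and stabilise the ribosomal RNAs: the 40S subunit reads the messenger RNA and the 60S subunit joins the amino acids. Their messenger RNAs are among the most abundant in a cell, and in vertebrates they start with a run of pyrimidines, the terminal oligopyrimidine tract, through which mTORC1 signalling adjusts their translation. MYC is a transcription factor known to raise the expression of many genes of ribosome production, and it binds the E-box letters CACGTG.

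The start regions of these genes are shown because the start of the transcript is the shared feature of the family. RefSeq promoter windows of build GRCm38.p6, which run from 250 bases before to 50 after a gene's start, were found for 49 of the 64 genes, as 58 windows. A run of at least 8 C or T bases on the gene's strand that overlapped positions -10 to 20 around the start was present in 46.6% of the 58 windows, against 16.9% of all 32851 windows in the table and 16.7% of the 21262 windows of protein-coding genes. CACGTG was present in 10.3%, against 7.15% of all windows and 7.84% of those of protein-coding genes. CCGGAAG, letters known to be bound by ETS factors, was present on either strand in 37.9%, against 8.86% of all windows and 11.6% of those of protein-coding genes. These are counts of letters, not of bound sites, and the motifs can overlap one another.

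Shown here are 8 windows of 90 bases, from 70 before to 20 after the start: first 5 genes with a single window that were higher in the tumours of both genotypes, picked by the size of their difference in MYC mice, then 3 genes that passed the test in neither genotype and lay below 0 in MYC mice. The genes with higher tumour levels were Rplp0 (chr5:115559397-115559486, plus strand), Rpl14 (chr9:120571447-120571536, plus strand), Rps13 (chr7:116334171-116334260, minus strand), Rpl37a (chr1:72711190-72711279, plus strand) and Rps12 (chr10:23787190-23787279, minus strand). The others were Rps23 (chr13:90923052-90923141, plus strand), Rps27 (chr3:90213629-90213718, minus strand) and Rps16 (chr7:28350619-28350708, plus strand). Sequences run 5′ to 3′ on the gene's strand, and capitals mark a run of at least 8 C or T bases near the start.
Rplp0: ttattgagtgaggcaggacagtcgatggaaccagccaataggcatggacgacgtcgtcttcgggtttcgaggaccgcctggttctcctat
Rpl14: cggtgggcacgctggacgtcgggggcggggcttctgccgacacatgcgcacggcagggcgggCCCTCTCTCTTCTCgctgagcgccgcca
Rps13: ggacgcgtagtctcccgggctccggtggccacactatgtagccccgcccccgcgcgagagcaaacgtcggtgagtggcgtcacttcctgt
Rpl37a: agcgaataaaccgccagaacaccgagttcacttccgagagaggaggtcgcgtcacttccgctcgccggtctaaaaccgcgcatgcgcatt
Rps12: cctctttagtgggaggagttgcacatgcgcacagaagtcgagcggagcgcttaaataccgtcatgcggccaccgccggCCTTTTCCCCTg
Rps23: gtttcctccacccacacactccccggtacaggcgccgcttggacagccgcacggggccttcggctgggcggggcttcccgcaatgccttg
Rps27: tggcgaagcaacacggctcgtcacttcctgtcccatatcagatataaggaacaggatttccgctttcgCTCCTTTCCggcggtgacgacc
Rps16: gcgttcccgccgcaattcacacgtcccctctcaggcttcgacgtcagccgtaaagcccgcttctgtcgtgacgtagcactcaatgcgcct
Among the 5 genes higher in tumours, Rpl14 and Rps12 had a run of 14 and 11 pyrimidines near the start. Among the 3 others, Rps27 had one of 9. The longest runs near the start of Rplp0, Rps13, Rpl37a, Rps23 and Rps16 were 7, 6, 3, 6 and 5 bases. Runs of 8 or more were thus found on both sides of this small selection.

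The deposited values are log2 levels made with RMA, which equalises the distributions of the arrays, so a difference is measured against the remaining genes of an array. The mean of an array was 5.434 to 5.465 and its maximum 13.55 to 13.68. Hepatocyte markers, 9 of 10 with a row, had mean log2 levels between 11.79 and 12.30 on every array, against array medians of 4.896 to 4.973. The Myc row, for which the sources used here do not say whether its probes detect the transgene, averaged 7.83 ± 1.05 in MYC/REG3A tumours and 7.97 ± 0.94 in MYC/REG3A non-tumour liver, and 7.09 ± 0.17 in MYC tumours and 7.68 ± 0.22 in MYC non-tumour liver (SD, n = 4 each). Both arrays of MYC/REG3A mouse 2 stood apart on this row, at 9.37 in the tumour and 9.24 in the non-tumour liver, against 6.99 to 7.97 on the other 6 arrays of that genotype. In RNA from whole tissue, a lower level can mean fewer cells of a type or less RNA per cell, and these cannot be told apart.

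Ribosomal protein transcripts were higher in the tumours than in the non-tumour livers of both genotypes. The mean log2 level over the 64 genes was 8.70, 8.41, 8.60 and 8.23 in the tumours of MYC/REG3A mice 1 to 4, against 7.94, 7.94, 7.92 and 7.87 in their non-tumour livers. In MYC mice 1 to 4 it was 8.73, 8.68, 8.54 and 8.77 in the tumours, against 7.98, 7.88, 8.12 and 7.94 in the non-tumour livers. The lowest tumour, that of MYC/REG3A mouse 4, lay above the highest non-tumour liver, that of MYC mouse 3. The tumour was higher than the non-tumour liver of the same mouse in all 8 mice for 47 of the 64 genes, against 9.08% of all genes with a row.

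**Figure D1:**
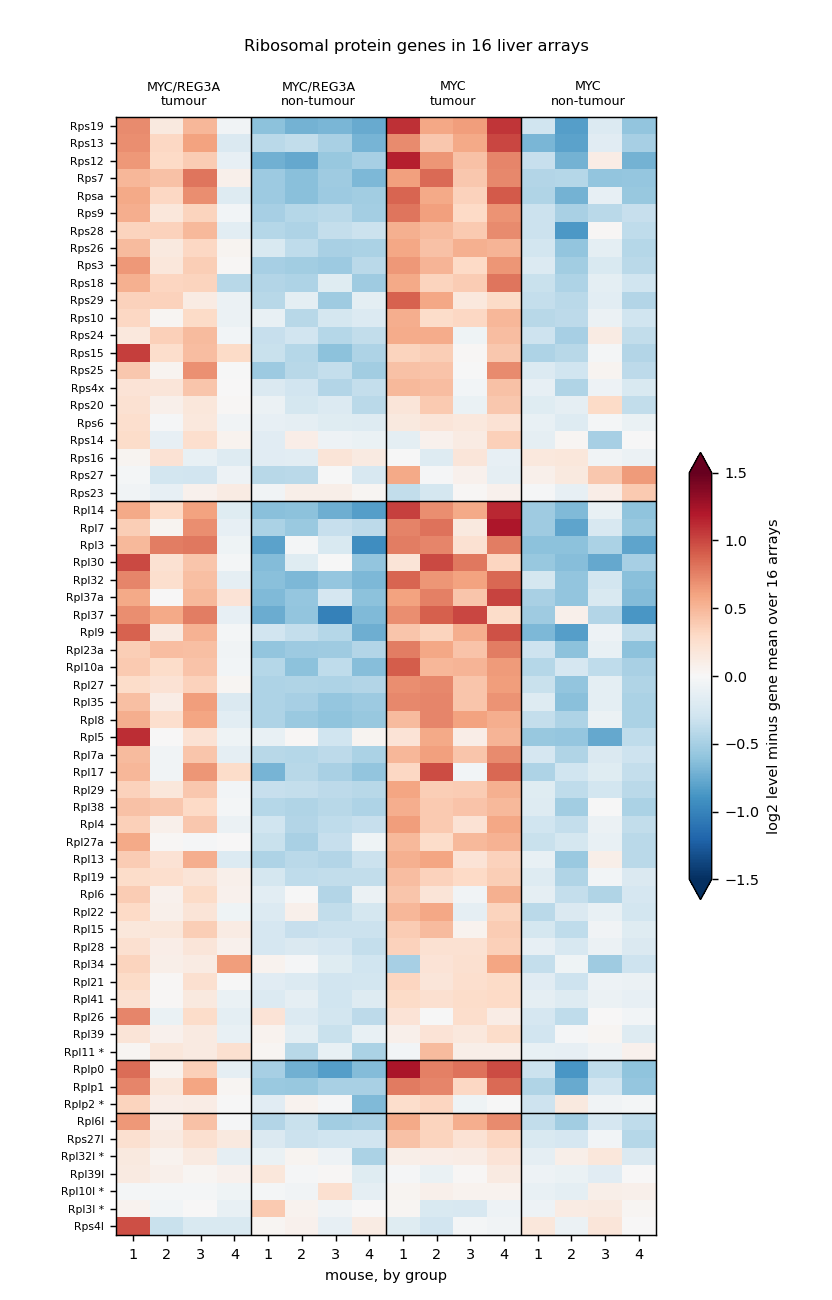
Log2 level of each of the 64 ribosomal protein genes (rows) on each of the 16 arrays (columns, mice 1 to 4 of each group), minus the gene's mean over the 16 arrays; red is higher and blue lower, the colour scale ends at -1.5 and 1.5, and lines part the 40S, 60S, P stalk and l-symbol genes. An asterisk marks the 5 genes that failed the filter on low values; most rows are red in both tumour groups, with the palest MYC/REG3A tumours in mice 4 and 2.

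In MYC/REG3A mice, 38 of the 59 genes that passed the filter on low values rose in the tumours and 0 fell (limma with Benjamini-Hochberg adjustment over 13555 genes, threshold 0.05). Among all tested genes 7.58% rose and 4.88% fell. The median difference of the 59 genes, tumour minus non-tumour, was 0.63 on the log2 scale, against -0.02 over all tested genes. Of the 64 genes, 53 were higher in the tumour in all 4 mice and 0 were lower in all 4, against 14.5% of all genes that were higher in all 4. The count of 38 depended on single mice: it was 12 without MYC/REG3A mouse 1 (background 1.82%) and 11 without mouse 3 (background 1.77%), with 56 and 58 of the 59 differences still above 0. It was 32 without mouse 2 (background 6.58%) and 32 without mouse 4 (background 4.94%).

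In MYC mice, 49 of the 59 genes rose in the tumours and 0 fell, against 17.4% and 15.8% of all tested genes. The median difference was 0.82, against -0.03 over all tested genes. Of the 64 genes, 49 were higher in the tumour in all 4 mice, against 17.1% of all genes, and 2 were lower in all 4. Leaving out any 1 MYC mouse left 42 to 49 rises, with 12.3% to 15.1% of all tested genes rising. The filter, at least 4 of 16 arrays above the array median, admitted 4 genes mainly through tumour arrays: Rps15 and Rps29 exceeded the median on 0 non-tumour arrays, and Rpl30 and Rps20 on 1 each, so the counts over 59 are not counts over the family. Without any filter, 36 of the 64 genes rose in MYC/REG3A mice (background 4.04%) and 49 of the 64 in MYC mice (background 10.4%). The 38 genes that rose in MYC/REG3A mice were all among the 49 that rose in MYC mice.

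**Figure D2:**
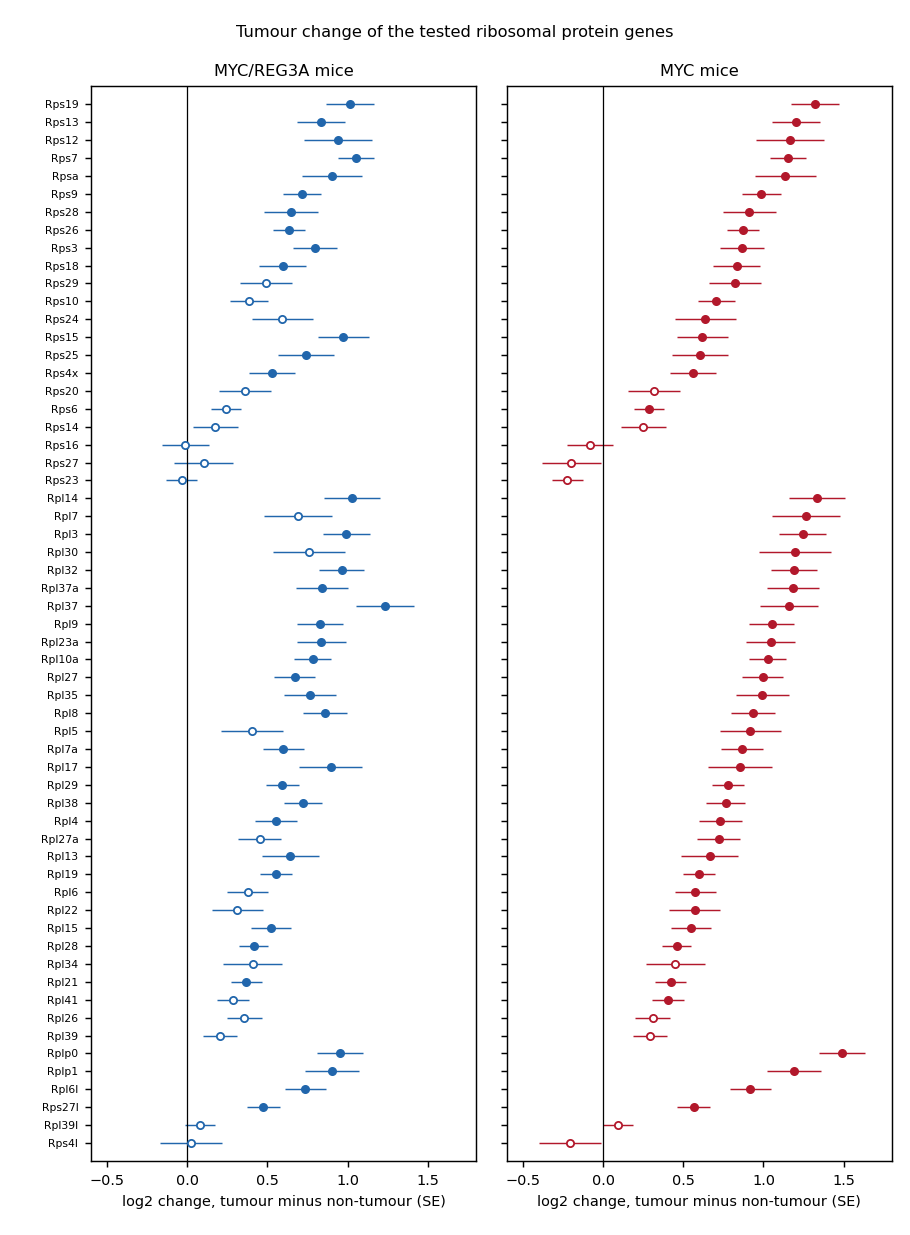
Log2 difference, tumour minus non-tumour liver, of the 59 tested ribosomal protein genes in MYC/REG3A mice (left) and MYC mice (right), with bars of 1 SE; filled points passed the test. All filled points lie right of 0, and the few genes at or left of 0 include Rps16, Rps23 and Rps27.

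The 40S genes had 13 of 22 rises in MYC/REG3A mice, with a median difference of 0.61, and 17 of 22 in MYC mice, with a median of 0.76 (7.58% and 17.4% of all tested genes rose). Rps19, which in humans is the gene most often mutated in Diamond-Blackfan anaemia, stood at 9.84, 9.28, 9.62 and 9.08 in the tumours of MYC/REG3A mice 1 to 4 and at 8.51, 8.42, 8.45 and 8.38 in their non-tumour livers. In MYC mice 1 to 4 it stood at 10.22, 9.71, 9.76 and 10.20 in the tumours and at 8.83, 8.30, 8.92 and 8.54 in the non-tumour livers. The groups did not overlap in either genotype: Rps19 rose by 1.02 in MYC/REG3A tumours (SE 0.15, adjusted p = 0.007) and by 1.32 in MYC tumours (SE 0.15, adjusted p = 0.000697), with 4 of 4 mice higher in each. In MYC tumours this amounts to 2.5-fold.

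Rps7 had the smallest SE among the 5 largest 40S rises of MYC mice. Its level was 8.34, 8.27, 8.64 and 7.91 in the MYC/REG3A tumours, against 7.28, 7.21, 7.30 and 7.16 in the non-tumour livers of the same mice. It rose by 1.05 there (SE 0.114, adjusted p = 0.00267) and by 1.15 in MYC tumours (SE 0.114, adjusted p = 0.000482). Rps12 rose by 0.94 and 1.17 in MYC/REG3A and MYC tumours, Rps13 by 0.84 and 1.20, and Rpsa, the 40S protein also known as a precursor of a laminin receptor, by 0.90 and 1.14. Each of these was higher in the tumour in all 8 mice. Rps15, which passed the filter through tumour arrays alone, rose by 0.97 in MYC/REG3A tumours (SE 0.16, adjusted p = 0.00862) and by 0.62 in MYC tumours (SE 0.16, adjusted p = 0.0161).

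Rps6, the 40S protein that S6 kinase phosphorylates downstream of mTORC1, differed little in size but in every mouse. It had levels of 13.27, 13.00, 13.17 and 12.96 in the MYC/REG3A tumours and of 12.89, 12.88, 12.83 and 12.82 in the non-tumour livers. In MYC mice the tumour levels were 13.16, 13.20, 13.17 and 13.23 and the non-tumour levels 12.90, 12.82, 12.99 and 12.91. Its difference of 0.24 in MYC/REG3A mice did not pass the test (SE 0.0935, adjusted p = 0.113), and its rise of 0.28 in MYC mice did (SE 0.0935, adjusted p = 0.0417), with 4 of 4 mice higher in each. These levels lie near the array maxima of 13.55 to 13.68.

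The rows of Rps27, Rps23 and Rps16 showed no rise. Rps23, a protein of the decoding centre, differed by -0.04 in MYC/REG3A mice (adjusted p = 0.846) and by -0.22 in MYC mice (adjusted p = 0.104), where it was lower in the tumour in 4 of 4 mice. For Rps27, a zinc finger protein, the tumour levels of MYC/REG3A mice were 5.41, 5.16, 5.15 and 5.37, against 5.02, 5.04, 5.43 and 5.20 in the non-tumour livers, and the groups overlapped. In MYC mice they were 6.01, 5.42, 5.50 and 5.30 in the tumours, against 5.52, 5.58, 5.84 and 6.08 in the non-tumour livers, and again they overlapped. Rps16 differed by -0.01 and -0.08 in MYC/REG3A and MYC mice (adjusted p = 0.968 and 0.699). Rps23 and Rps16 are named after their values were seen.

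Rows that the annotation assigns to several symbols, among them Rps16 or Rps27, were higher on average in the tumours. A row shared by Rps16, a pseudogene of it and 1 unnamed locus averaged 11.02 in MYC/REG3A tumours and 10.32 in MYC/REG3A non-tumour livers, and 11.27 in MYC tumours and 10.40 in MYC non-tumour livers, with the tumour higher in 8 of 8 mice. A row shared by Rps27 and Rps27rt averaged 8.94 and 8.37 in MYC/REG3A tumours and non-tumour livers, and 9.22 and 8.41 in MYC tumours and non-tumour livers, with 4 of 4 and 3 of 4 mice higher in the tumour. Which of their genes such rows report cannot be told apart. Over all 57 shared rows that list a ribosomal protein symbol, the tumour was higher on average in 52 in each genotype, with median differences of 0.53 in MYC/REG3A mice and 0.66 in MYC mice. For 12 symbols, among them Rpl10, Rpl12, Rpl13a, Rpl23, Rps2 and Rps21, shared rows were the only ones, so these proteins are not among the 64.

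Of the 31 tested 60S genes, 21 rose in MYC/REG3A mice, with a median difference of 0.64, and 28 rose in MYC mice, with a median of 0.85. The shares of all tested genes that rose were 7.58% and 17.4%. All 31 differences lay above 0 in each genotype, against 47.2% of all tested genes in MYC/REG3A mice and 47.0% in MYC mice. Rpl14 had levels of 10.17, 9.89, 10.20 and 9.41 in MYC/REG3A tumours, against 8.96, 8.98, 8.86 and 8.77 in the non-tumour livers. In MYC mice the tumours had 10.62, 10.29, 10.16 and 10.72, against 9.06, 8.93, 9.48 and 8.99 in the non-tumour livers. The groups lay apart in both genotypes, and Rpl14 rose by 1.03 (SE 0.175, adjusted p = 0.00977) in MYC/REG3A tumours and by 1.33 (SE 0.175, adjusted p = 0.00103) in MYC tumours.

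Rpl37, a zinc-binding protein, had the largest rise in MYC/REG3A mice among the chosen rows of the genes. Its levels were 6.87, 6.74, 6.93 and 6.04 in the tumours and 5.42, 5.58, 5.15 and 5.51 in the non-tumour livers of those mice. In MYC mice they were 6.86, 7.06, 7.17 and 6.45 in the tumours and 5.64, 6.24, 5.73 and 5.29 in the non-tumour livers. It rose by 1.23 in MYC/REG3A tumours (SE 0.182, adjusted p = 0.007) and by 1.16 in MYC tumours (SE 0.182, adjusted p = 0.00196). Rpl3, which reaches towards the peptidyl transferase centre, rose by 0.99 (SE 0.145, adjusted p = 0.00689) and 1.24 (SE 0.145, adjusted p = 0.00077), although its MYC/REG3A groups overlapped, with the tumour of mouse 4 at 8.96 and the non-tumour liver of mouse 2 at 8.99. A further row of Rpl3, at a mean level of 8.30, differed by 1.31 in MYC/REG3A mice and 1.55 in MYC mice. Rpl32 rose by 0.96 and 1.19 and Rpl37a by 0.84 and 1.18 in MYC/REG3A and MYC tumours.

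Other 60S genes passed in MYC mice but not in MYC/REG3A mice, which does not show that they differ between the genotypes. Rpl7 was higher by 0.69 in MYC/REG3A mice (SE 0.212, adjusted p = 0.06) and rose by 1.26 in MYC mice (SE 0.212, adjusted p = 0.00253). Rpl30, known in yeast to bind its own transcript, differed by 0.76 in MYC/REG3A mice (adjusted p = 0.0545) and rose by 1.20 in MYC mice (adjusted p = 0.00412). This Rpl30 row passed the filter mainly through tumour arrays, with 8 tumour arrays and 1 non-tumour array above the array median. A brighter row shared by Rpl30 and Gm12191, at a mean level of 10.84, differed by 0.94 in MYC/REG3A mice and 0.99 in MYC mice. The tumour was higher on that shared row in 4 of 4 mice of each genotype. Which of its genes it reports cannot be told apart. Rpl22, an RNA-binding protein of the subunit surface, differed by 0.31 in MYC/REG3A mice (adjusted p = 0.222) and rose by 0.57 in MYC mice (adjusted p = 0.0221), and its groups overlapped in both. Its paralogue Rpl22l1, counted outside the 64, differed by -0.10 and -0.22 in MYC/REG3A and MYC mice (adjusted p = 0.54 and 0.0993). Rpl22l1 thus lay below 0 in each genotype, while Rpl22 lay above it.

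Rpl5 and Rpl11 form, with 5S ribosomal RNA, the particle that can bind MDM2 and restrain it from degrading p53. Rpl5 had levels of 7.15, 6.05, 6.26 and 5.97 in MYC/REG3A tumours and of 5.93, 6.06, 5.74 and 6.08 in the non-tumour livers, and only mice 1 and 3 were higher in the tumour. In MYC mice it had 6.25, 6.61, 6.14 and 6.55 in the tumours and 5.47, 5.46, 5.27 and 5.66 in the non-tumour livers. Rpl5 differed by 0.40 in MYC/REG3A mice (SE 0.192, adjusted p = 0.192) and rose by 0.92 in MYC mice (SE 0.192, adjusted p = 0.00619). Rpl11 failed the filter, with levels of 3.75 to 4.70 over the 16 arrays, so its differences of 0.39 and 0.21 in MYC/REG3A and MYC mice in the unfiltered fit (adjusted p = 0.124 and 0.332) come from a row below the median of every array.

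The P stalk is the flexible arm of the 60S subunit that recruits the GTPase factors of translation, with Rplp0 as its base and Rplp1 and Rplp2 as its arms. Rplp0 stood at 10.60, 9.81, 10.12 and 9.62 in MYC/REG3A tumours, against 9.27, 9.04, 8.93 and 9.11 in the non-tumour livers. In MYC mice it stood at 10.98, 10.52, 10.57 and 10.73 in the tumours, against 9.44, 8.89, 9.38 and 9.15 in the non-tumour livers. The groups lay apart in both genotypes. Rplp0 rose by 0.95 in MYC/REG3A tumours (SE 0.144, adjusted p = 0.00713) and by 1.49 in MYC tumours (SE 0.144, adjusted p = 0.000453), or 1.93-fold and 2.8-fold. Its rise in MYC tumours was the largest among the 64 genes when each is read from its chosen row. A further row of Rplp0, at a mean level of 5.35, differed by 0.26 in MYC/REG3A mice and 0.17 in MYC mice. Further rows of Rpl29 and Rpl3 differed by 1.59 and 1.55 in MYC mice, so the ranking depends on the row. Rplp1 rose by 0.90 and 1.19 (SE 0.169, adjusted p = 0.013 and 0.00132). Rplp2 failed the filter, with levels of 3.73 to 4.73, and differed by 0.33 and 0.19 in the unfiltered fit (adjusted p = 0.165 and 0.368). A row shared by Rplp2 and Snora52 was brighter. It averaged 10.88 and 10.02 in MYC/REG3A tumours and non-tumour livers, and 11.20 and 10.30 in MYC tumours and non-tumour livers. The tumour was higher on it in 4 of 4 mice of each genotype. Which of these genes the shared row reports cannot be told apart.

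**Figure D3:**
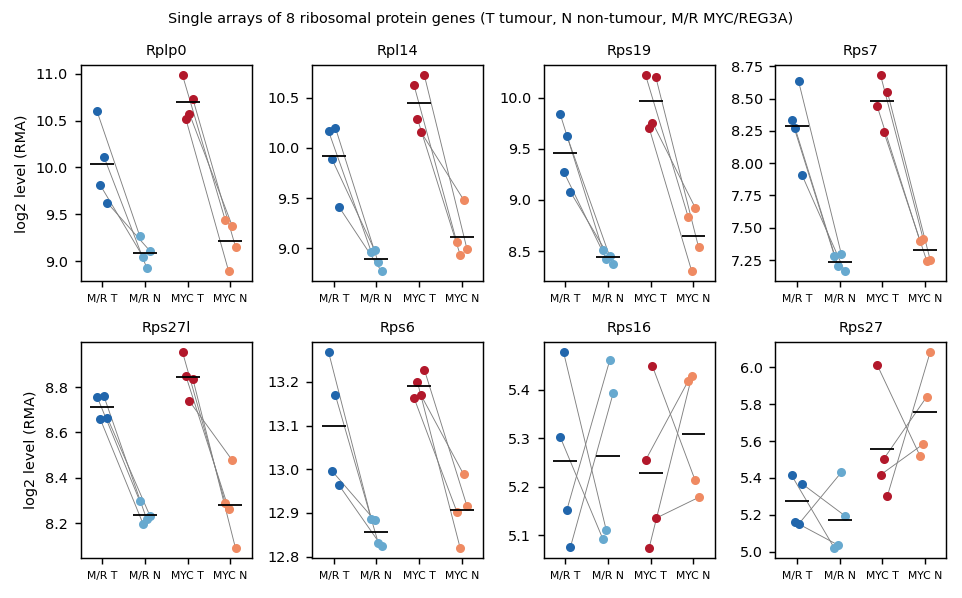
Log2 level on each array for 8 ribosomal protein genes, with MYC/REG3A (M/R) tumours and non-tumour livers left and MYC tumours and non-tumour livers right in each panel; points are mice, thin lines join the arrays of a mouse and bars are group means. Rplp0, Rpl14, Rps19, Rps7, Rps27l and Rps6 are higher in every tumour than in the non-tumour liver of its mouse, while Rps16 and Rps27 cross.

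Of the 7 genes with a symbol ending in l, 2 rose in both genotypes, 2 were tested without passing in either, and 3 failed the filter. Rps27l, which in humans is a target of p53, had levels of 8.76, 8.66, 8.76 and 8.66 in MYC/REG3A tumours, against 8.30, 8.20, 8.22 and 8.23 in the non-tumour livers. It rose by 0.48 in MYC/REG3A tumours (SE 0.102, adjusted p = 0.0199) and by 0.56 in MYC tumours (SE 0.102, adjusted p = 0.00346), while the row of its namesake Rps27 differed by 0.10 and -0.20. Rpl6l rose by 0.74 and 0.92 (SE 0.129, adjusted p = 0.0104 and 0.0013), and its namesake Rpl6 differed by 0.38 in MYC/REG3A mice (adjusted p = 0.082) and rose by 0.57 in MYC mice (adjusted p = 0.00834).

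Rpl39l, a paralogue known from the mouse testis, differed by 0.08 and 0.09 in MYC/REG3A and MYC mice (adjusted p = 0.602 and 0.476), and Rpl39, which lines the exit tunnel, by 0.21 and 0.29 (adjusted p = 0.229 and 0.0599). Rps4l differed by 0.02 and -0.20 (adjusted p = 0.958 and 0.448), whereas the X-linked Rps4x rose by 0.53 and 0.56 (adjusted p = 0.0418 and 0.0158). The paralogues Rpl3l of muscle and heart and Rpl10l of the testis, and Rpl32l, lay below the array medians, at 3.90 to 4.53, 3.13 to 3.52 and 3.19 to 3.88 over all arrays. Genes of this family have near-identical copies elsewhere in the genome, so a row can also record transcripts of a copy.

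More than 1 row existed for 24 of the 64 genes. Some of these rows held identical values: Rpl23a had 2 rows but 1 distinct one, Rps12 had 8 but 3 distinct, and Rps19 had 3 but 2 distinct. All rows of a gene were higher on average in the tumours in 21 of 24 genes in MYC/REG3A mice and in 24 of 24 in MYC mice. The 3 exceptions, Rpl3, Rpl7 and Rps18, had a dim further row, with mean levels of 3.97, 4.35 and 4.88, that differed by -0.11, -0.03 and -0.11 in MYC/REG3A mice.

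The size of the difference varied with the signal of the row. The 57 genes outside the l-symbol class were parted into 3 classes of 19 by their mean level. In the lowest class, with mean levels of 4.22 to 6.41, the median difference was 0.38 in MYC/REG3A mice and 0.57 in MYC mice, with 4 and 10 of 17 tested genes rising. The middle class, at 6.75 to 9.95, had medians of 0.83 and 1.04, with 15 and 18 of 19 rising, and the highest, at 10.07 to 13.01, medians of 0.60 and 0.78, with 17 and 19 of 19 rising. A row's signal depends on its probes, so these classes do not order the genes by transcript amount.

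**Figure D4:**
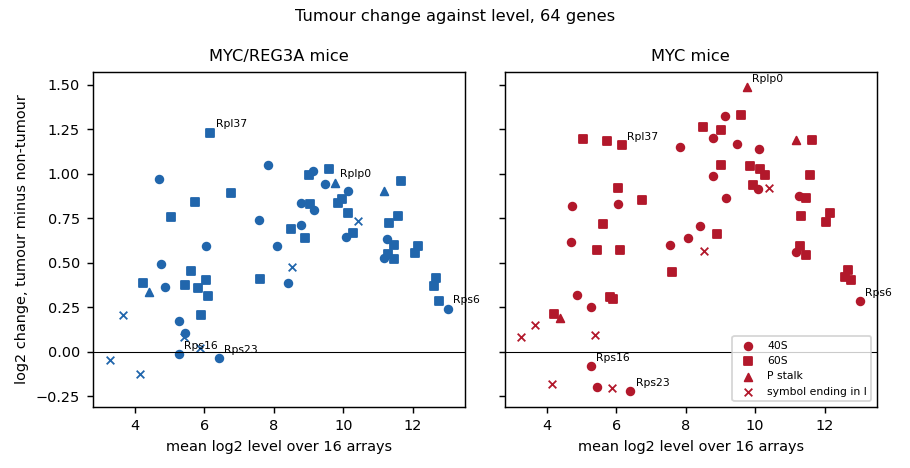
Log2 difference, tumour minus non-tumour liver, against mean log2 level over 16 arrays for the 64 ribosomal protein genes in MYC/REG3A mice (left) and MYC mice (right); symbols mark the subunit. Differences are larger at middle levels and smaller at both ends, with Rps6 at the right end and Rps16 and Rps23 at or below 0.

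Most of the tested genes moved together across arrays. Each tested gene was set against the mean of the other 58, centred per gene, and Pearson's r over the 16 arrays had a median of 0.951 and ranged from -0.448 (Rps23) to 0.992, with 41 of 59 above 0.9. These 16 points share the tumour and non-tumour grouping and the arrays' processing. Of the deviations from the 4 group means, the median r was 0.759 and 47 of 59 lay above 0.5. The shares of all tested genes above these values of r are not given here, so these counts do not set the family apart. The median SD over the 59 genes was 0.258 in MYC/REG3A tumours and 0.094 in MYC/REG3A non-tumour livers, and 0.187 in MYC tumours and 0.171 in MYC non-tumour livers. The genes outside the 64 whose levels were most like the mean of the 59 over the 16 arrays were Gm12739 (r = 0.991), Eef1b2, a subunit of the factor that recharges elongation factor 1 (r = 0.986), the pseudogene row Rpl31-ps20 (r = 0.983), Zfp526 (r = 0.981) and AI506816 (r = 0.98).

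Mice differed in the size of the tumour difference. Its median over the 64 genes was 0.794, 0.506, 0.738 and 0.386 in MYC/REG3A mice 1 to 4, with 62, 58, 59 and 59 genes higher in the tumour. In MYC mice 1 to 4 it was 0.788, 0.837, 0.391 and 0.91, with 59, 58, 53 and 58 genes higher. In MYC mouse 3 the tumour was the lowest of the MYC tumours and the non-tumour liver the highest of the MYC non-tumour livers. In MYC/REG3A mouse 4 the tumour was low and the non-tumour liver close to those of the other mice. The SD of the tumour difference over all 13555 tested genes varied likewise in MYC/REG3A mice 1 to 4, at 0.679, 0.336, 0.657 and 0.429, so mice 2 and 4 differed less over the array as a whole and not in the ribosomal protein genes alone. In MYC mice 1 to 4 that SD was 0.729, 0.682, 0.624 and 0.704.

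The 71 mitochondrial ribosomal protein genes serve the separate ribosomes of mitochondria. Their medians put the MYC mice in another order than the cytosolic genes did, and the MYC/REG3A mice in the same order. Their median difference was 0.569, 0.218, 0.229 and 0.195 in MYC/REG3A mice 1 to 4 and 0.483, 0.341, 0.607 and 0.552 in MYC mice 1 to 4. MYC mouse 3, which had the smallest median of its genotype for the cytosolic genes, had the largest for the mitochondrial ones. MYC/REG3A mouse 3 had the second largest median for cytosolic genes, at 0.738, beside 0.229 for mitochondrial ones. In the tumours, 15 of 70 tested mitochondrial genes rose in MYC/REG3A mice and 47 of 70 in MYC mice, against 7.58% and 17.4% of all tested genes, and 0 fell in either. Mrpl50 rose by 0.54 and 0.93, Mrpl20 by 0.57 and 0.88, Mrpl37 by 0.51 and 0.91 and Mrps5 by 0.50 and 1.03 in MYC/REG3A and MYC tumours.

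**Figure D5:**
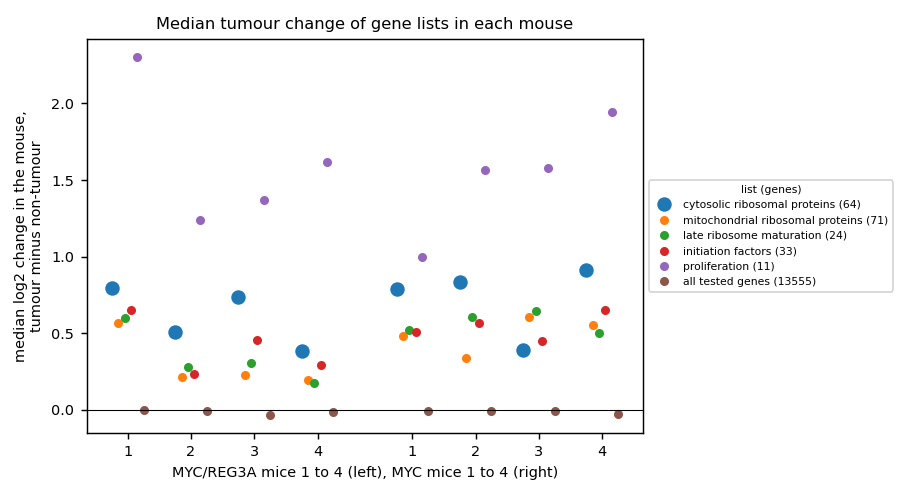
Median log2 difference, tumour minus non-tumour liver, in each mouse for 5 gene lists and all tested genes, with MYC/REG3A mice 1 to 4 left and MYC mice 1 to 4 right; the number of genes stands in the legend. Cytosolic ribosomal proteins (large points) lie above mitochondrial ones in 7 of 8 mice and below them in MYC mouse 3.

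Other genes of ribosome production and translation were counted in lists, beside shares of 7.58% of all tested genes that rose in MYC/REG3A mice and 17.4% in MYC mice. Of 24 genes in the list named late ribosome maturation, not all of which act at late steps, 10 rose in MYC/REG3A tumours and 16 in MYC tumours. In this list 0 fell, and the medians were 0.35 and 0.56. Mdn1, the ATPase that strips assembly factors from 60S precursors, rose by 0.90 and 1.12, Wdr12 by 1.18 and 1.84 and Nmd3, the 60S export adaptor, by 0.56 and 1.03. Of 33 initiation factors 13 rose in MYC/REG3A tumours and 20 in MYC tumours and 0 fell, among them Eif3d by 0.88 and 1.21 and Eif3h by 0.85 and 1.03. Of 12 elongation and termination factors 6 rose in MYC/REG3A tumours and 7 in MYC tumours and 0 fell, led by Eef1b2 at 1.14 and 1.42.

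Among 16 genes of mTORC1 and translation control, 1 rose in MYC/REG3A mice and 3 rose and 1 fell in MYC mice. The 6.25% and 18.8% that rose are near the shares of all tested genes. Larp4 rose by 0.49 and 0.66, and Eif2ak2, a kinase that restrains initiation, differed by -0.30 in MYC/REG3A mice (adjusted p = 0.108) and fell by 0.49 in MYC mice. Of 4 related genes outside the naming rule with a row, 1 rose in MYC/REG3A mice and 3 in MYC mice. Rps3a1, a 40S protein, rose by 1.01 and 1.23, Fau, which encodes a 40S protein fused to a ubiquitin-like part, differed by 0.22 in MYC/REG3A mice (adjusted p = 0.129) and rose by 0.38 in MYC mice, and Rpl7l1 differed by 0.19 in MYC/REG3A mice (adjusted p = 0.22) and rose by 0.47 in MYC mice. Of 15 pseudogene rows of the family 8 were tested, and 4 of these rose in each genotype, against 7.58% and 17.4% of all tested genes. Among them were Rpl31-ps20, by 0.98 and 1.34, and Rps15a-ps5, by 0.94 and 1.47. Without the filter, 4 of the 15 rose in MYC/REG3A mice and 5 in MYC mice, against 4.04% and 10.4% of all genes. The median differences of the 15 were -0.03 and 0.05.

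Markers of other cells moved in the same contrasts, in which 4.88% of all tested genes fell in MYC/REG3A tumours and 15.8% in MYC tumours. All 11 tested proliferation genes rose in both genotypes, against 7.58% of all tested genes in MYC/REG3A tumours and 17.4% in MYC tumours. Ccnb2 rose by 3.27 and 2.39 and Ccna2 by 2.13 and 2.08 in MYC/REG3A and MYC tumours. Of 10 Kupffer cell and macrophage markers, 9 fell in MYC/REG3A tumours and 8 in MYC tumours. Their mean level was 6.57 to 7.83 in MYC/REG3A tumours and 8.15 to 8.78 in MYC/REG3A non-tumour livers, and 6.78 to 7.89 in MYC tumours and 7.87 to 9.30 in MYC non-tumour livers. The median Kupffer marker difference was -2.26, -0.76, -1.74 and -0.66 in MYC/REG3A mice 1 to 4 and -1.60, -1.17, -1.05 and -1.76 in MYC mice 1 to 4, so that in MYC/REG3A mice the mice 1 and 3, with the larger ribosomal protein differences, also had the larger falls of these markers.

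Of 10 sinusoidal endothelial markers 6 fell in MYC/REG3A tumours and 8 in MYC tumours. Their mean level ran from 7.60 to 8.38 in MYC/REG3A tumours and from 8.27 to 8.65 in MYC/REG3A non-tumour livers, and from 7.85 to 8.09 in MYC tumours and from 8.56 to 9.21 in MYC non-tumour livers. Their median difference was -0.739, -0.257, -0.944 and -0.279 in MYC/REG3A mice 1 to 4 and -0.943, -1.025, -0.738 and -1.267 in MYC mice 1 to 4, smaller in size in MYC/REG3A mice 2 and 4 as for the Kupffer markers. Falls of tested markers follow for MYC/REG3A and then MYC tumours, where 4.88% and 15.8% of all tested genes fell. They numbered 1 and 3 of 9 for hepatocyte, 3 and 4 of 6 for B and plasma cell and 3 and 5 of 10 for stellate cell and fibroblast markers. Neutrophil markers had 0 and 4 of 4, bile duct markers 0 and 3 of 5 and T cell markers 0 and 0 of 4. Without the filter, they numbered 1 and 3 of 9 for hepatocyte, 0 and 4 of 7 for B and plasma cell and 1 and 5 of 10 for stellate cell markers. Neutrophil markers then had 0 and 3 of 8, bile duct markers 0 and 2 of 6 and T cell markers 0 and 0 of 6. The share of all genes that fell without the filter is not given here. Of 4 tested adipose markers 2 rose in each genotype, against 7.58% and 17.4% of all tested genes in MYC/REG3A and MYC tumours. Without the filter, 2 of 7 adipose markers rose in MYC/REG3A tumours and 1 of 7 in MYC tumours, against 4.04% and 10.4% of all genes. RMA levels do not reach 0, so absence of a marker cannot be read from them. The part of these cell types and of proliferation in the ribosomal protein result was not tested.

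The difference between the genotypes in the tumour effect was tested as an interaction. It was below 0, meaning a smaller difference in MYC/REG3A mice, in 49 of the 59 genes, against 50.7% of all tested genes. Its median was -0.18, against -0.005 over all tested genes. By limma 0 of the 59 passed, against 0.00738% of all tested genes, and 1 had an unadjusted p under 0.05, against 5.58% of all. That gene was Rplp0, whose difference was smaller by 0.54 in MYC/REG3A mice (interaction -0.54, SE 0.203, unadjusted p = 0.025, adjusted p = 0.873). Next by p were Rps10 (-0.32), Rpl7 (-0.57), Rpl5 (-0.51) and Rpl27 (-0.32). With MYC/REG3A mice 2 and 4 left out the median was 0.003. Those mice had the smallest tumour differences of their genotype. An upward shift thus followed from the choice of mice and does not show what the sign of the median rests on. In mice 2 and 4 the tumour difference was also narrower over all tested genes (SD 0.336 and 0.429, against 0.679 and 0.657 in MYC/REG3A mice 1 and 3).

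The comparisons of MYC/REG3A with MYC tissue ask whether levels differ in mice that also carry the REG3A transgene. Between tumours, 0 of the 59 genes passed by limma, against 0.0221% of all tested genes. The median difference was -0.20, with 51 of 59 below 0 against 52.5% of all tested genes, and 19 genes had an unadjusted p under 0.05, all lower in MYC/REG3A tumours, against 10.6% of all genes in either direction. Rpl27, at 10.55, 10.49, 10.62 and 10.30 in MYC/REG3A tumours and 10.974, 10.997, 10.69 and 10.897 in MYC tumours, did not overlap (difference -0.40, SE 0.107, adjusted p = 0.263). Rplp0 differed by -0.67 (SE 0.185, adjusted p = 0.296), Rpl14 by -0.53, Rpl7a by -0.38 and Rpl10a by -0.37. Without MYC/REG3A mouse 1 the count was 1, Rplp0. Without MYC/REG3A mice 2 and 4, whose tumours had the lowest mean levels of that genotype, the median was -0.05, a shift that followed from the choice of mice.

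Between non-tumour livers of MYC/REG3A and MYC mice, 0 of the 59 genes passed by limma, against 0.0% of all tested genes, and 2 had an unadjusted p under 0.05, against 5.45% of all. The median difference was -0.08, with 46 of 59 below 0, against 51.1% of all tested genes. Rps27, at 5.02, 5.04, 5.43 and 5.20 in MYC/REG3A livers and 5.52, 5.58, 5.84 and 6.08 in MYC livers, differed by -0.59 (SE 0.16, unadjusted p = 0.00218, adjusted p = 0.904). Rpl5, at 5.93, 6.06, 5.74 and 6.08 in MYC/REG3A livers and 5.47, 5.46, 5.27 and 5.66 in MYC livers, differed by 0.49 (adjusted p = 0.904). Rows shared with other symbols did not show these differences. A brighter row of Rps27 and Rps27rt averaged 8.37 in MYC/REG3A and 8.41 in MYC non-tumour livers. A dimmer row of Rpl5 and a pseudogene of it averaged 4.75 and 4.83. The groups of Rps27 and Rpl5 did not overlap, and those of Rps25, Rpl8 and Rpl37, next by p, did. The share of all tested genes with separate groups is not given here, so this is no result about the family.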

How the data were processed

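Liver RNA of 8 mice was hybridised to 16 arrays. The deposited log2 expression values were made by the authors with RMA, per the submitters' processing notes, which name Affymetrix Expression Console 1.4.1. The settings and the array's genome build are not given in the sources used here. The base of the logarithm was inferred from the values' range, and detection calls were not used. The number of arrays, 4 per group, limits the precision. Of 41345 rows, 23521 had 1 gene symbol in the platform annotation, 1814 several and 16010 none. All 64 symbols matched RefSeq (GRCm38.p6), from which promoter sequences came.

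A gene was tested when it exceeded the array median in at least 4 of 16 arrays (13555 genes). Differences were fitted over all 16 arrays with limma 3.58.1 in R 4.3.3 (lmFit, eBayes, 2-sided, Benjamini-Hochberg over tested genes, threshold 0.05). The mouse was a block for tumour against non-tumour liver and for the interaction, because both samples of a mouse come from 1 animal; within-mouse deviations correlated at 0.0963 to 0.325, and in 7 of 8 mice this was higher than with another mouse's tumour. Comparisons of genotypes used group means. SE pool the spread of all groups. The steps were tested on simulated data.

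Named genes are the largest rises and falls per comparison (up to 10 each), those of lowest p where fewer passed, a fixed set (Rplp0, Rplp1, Rplp2, Rpsa, Rps6, Rpl5, Rpl11, Rpl22, Rps27, l-symbols with their namesakes), up to 4 genes of lowest p per list and the 5 most like genes. Genes outside this rule, such as Rps14, Rps16, Rps20, Rps23, Rps24 and Rps29, were named after their values were seen. The members and lists were chosen with earlier results of these data known. Alternatives were no block, other filters, centring, the mean of all rows, array weights, a trended robust eBayes and leaving out mice.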

Additional observations from a re-analysis of the deposited data

Results flagged for a closer look

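Of 132 groups of 4 arrays checked, for 32 named ribosomal protein genes and the family mean, 4 held an array far from the other 3, where the gap to the nearest, relative to the group's range, passed Dixon's critical value. Chance gives such a gap in about 1 in 20 groups, a rate that 4 of 132 does not exceed.

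Rpl3 was at 9.248 in the tumour of MYC mouse 3, against 9.747 to 9.785 in the other MYC tumours. Rps4x was at 11.139 in the same tumour, against 11.62 to 11.666. Rps15 was at 4.667 in the non-tumour liver of MYC mouse 3, against 4.235 to 4.282 in the others. Rps4l was at 6.843 in the tumour of MYC/REG3A mouse 1, against 5.55 to 5.657 in the other MYC/REG3A tumours. In MYC mouse 3 the values of Rpl3 and Rps4x were low in the tumour and that of Rps15 high in the non-tumour liver. The mean over the 64 genes had the same directions in that mouse. The tested genes moved together within groups (median r = 0.759), so these flags and that mean are not separate observations. The cause was not tested.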

How the results depend on the processing

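The comparisons were repeated with other settings, and 233 counts and medians kept their direction and stayed within the limits set for them, while 4 did not. The count of rises in MYC/REG3A mice ranged from 11 to 40 when single mice were left out, with 12 without MYC/REG3A mouse 1 and 11 without MYC/REG3A mouse 3, and the count of lower genes in MYC/REG3A against MYC tumours from 0 to 1 (without MYC/REG3A mouse 1). The interaction median was 0.003 without MYC/REG3A mice 2 and 4, which had the smallest tumour differences of their genotype. The cause was not tested. The count of rises in MYC mice ranged from 42 to 49 with single mice left out (background 12.3% to 17.5%). Without the replicate block, that is without the pairing by mouse, 44 genes rose in MYC/REG3A mice (background 7.77%) and 50 in MYC mice (background 17.3%). With the mouse as a random replicate block, the comparisons of genotypes gave 0 calls among the 59 genes in each. Among single named genes, 98 values lost their call, 6 gained one and 2705 kept theirs, and no sign of a called value changed. Centring each array on other tested genes, which moved arrays by -0.10 to 0.08, left 37 rises in MYC/REG3A mice and 48 in MYC mice. Levels below the array medians (Rpl11, Rplp2) and near the array maxima (Rps6) limit the differences that can be read there.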
